A study of Papio papio with 23 samples.

Results

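The within-animal change in blood gene expression between days 1 and 2 after gamma irradiation was followed in the 4 baboons of the milder HARS category, HARS being the haematological form of acute radiation syndrome, in which blood cell counts drop in the weeks after exposure. The titles place 4 arrays in H1-2 on day 2 and 4 in H1-2 on day 1, so the comparison rests on 8 of the 23 arrays of the series, chosen by label alone. Each array held RNA from peripheral whole blood of an adult male Papio papio. The category H1-2 is described in the labels as a low to medium degree of HARS. All irradiated animals were anaesthetised and exposed to a 60Co source over the whole body or part of it, at an equivalent whole-body dose of 2.5 or 5 Gy, and the labels give neither dose nor field for a single animal. Mean age is given for the whole study as 8.1 ± 3.3 years. Used beside them were 10 arrays of the more severe category H2-3 (5 baboons on day 2 and 5 on day 1) and 5 arrays of baboons before irradiation (H0). The labels do not say whether the H0 animals are the irradiated ones at an earlier time.

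Blood is a mixture of cells with different life spans and different sensitivity to radiation. Lymphocytes are among the most radiosensitive cells of the body, while mature neutrophils do not divide, live briefly and are released from marrow stores under stress hormones and inflammatory signals. Damaged DNA activates the transcription factor p53, whose target genes are used as blood markers of exposure. In whole blood, fewer cells of a type and less RNA per cell cannot be told apart, and this holds for every gene below.

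Levels are log2 signals relative to the 75th percentile of the array, and changes are log2 differences of day 2 minus day 1 with their standard error. A probe was taken as measured where the scanner software called it well above background. That share was 48.4% ± 2.28 (SD, n = 4) of probes on day 2 and 46.4% ± 0.84 (n = 4) on day 1. The 7 spike-in probes averaged 4.80 to 5.71 on the day 2 arrays and 5.03 to 5.39 on the day 1 arrays. Of 17 genes of non-blood tissues, 4 were bright enough to be tested.

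Before the comparison, arrays were matched by probes that are either clearly on or off in an animal. Across all arrays 67 probes had this pattern, with a gap of at least 1 log2 unit. The day 2 and day 1 arrays with the same number differed at 19, 6, 17 and 20 of these 67 probes for baboons 1 to 4. By contrast, the day 2 array numbered 3 differed from the day 1 array numbered 4 at 2 probes, and the day 2 array numbered 4 from the day 1 array numbered 3 at 3. The day 1 array numbered 1 differed from the H2-3 day 2 array numbered 3 at 0 probes, and the day 2 array numbered 1 from the H2-3 day 1 array numbered 3 at 5. Deviations from the day means over all genes correlated at 0.38, 0.39, 0.16 and 0.06 for the same-numbered arrays, at 0.62 for day 2 number 3 with day 1 number 4, and at 0.58 for day 2 number 4 with day 1 number 3. The numbers in the titles thus go against the probe patterns for baboons 1, 3 and 4. For baboon 2 the match was not clear. Its day 1 array differed from the H2-3 day 2 array numbered 5 at 5 probes, against 6 from its own day 2 array. The deviations of day 1 number 2 correlated at 0.41 with day 2 number 1, and those of day 1 number 1 at 0.43 with day 2 number 2. The cause of these patterns was not tested. The comparison was fitted as the titles pair the arrays. Baboon numbers below are those of the titles, and arrays with the same number need not come from the same animal. Values per array are given for the leading genes and lists, since whether the days overlap does not depend on how the H1-2 arrays are paired. Genes given only by their change ± standard error rest on the pairing for that error. Both the overlap and the change rest on which arrays belong to H1-2. For the arrays numbered 1, which matched H2-3 arrays, this was not tested.

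**Figure D1:**
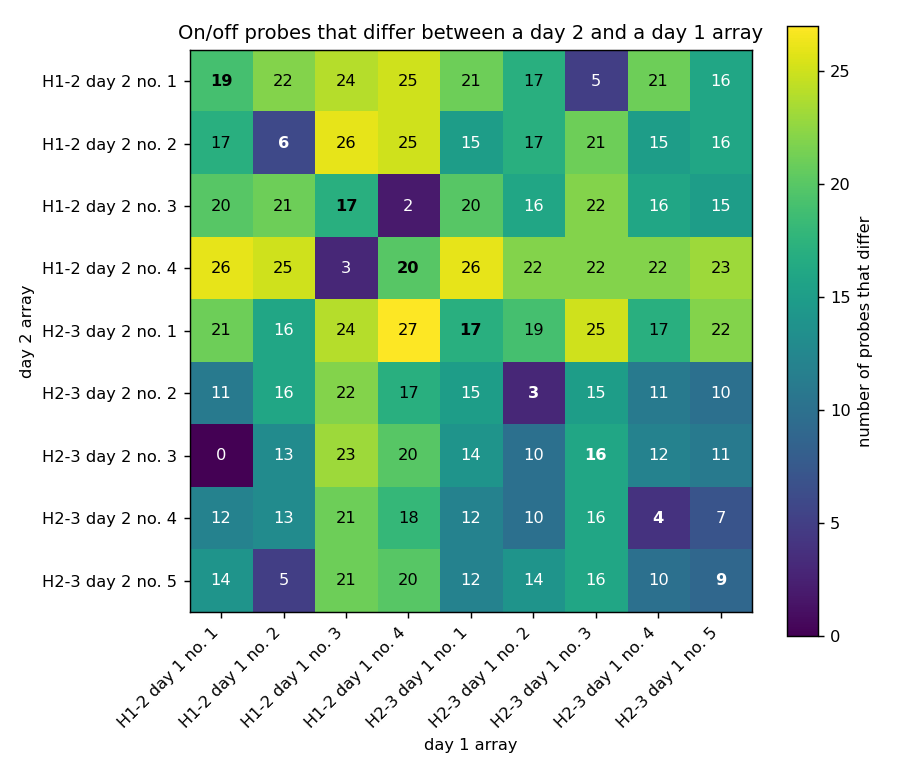
Number of the 67 on/off probes that differ between each day 2 array (rows) and each day 1 array (columns) of the H1-2 and H2-3 baboons, with same-numbered pairs in bold. The lowest counts of the H1-2 rows numbered 3 and 4 lie off the diagonal, at 2 and 3 probes, and the pair with 0 differences joins H2-3 day 2 number 3 to H1-2 day 1 number 1.

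The next genes were picked because their change varied most between the numbered pairs, so they give no separate evidence on the pairing. HLA-DQA2, a class II antigen-presentation chain, stood at 3.65, 4.11, -0.37 and 6.10 on the day 2 arrays of baboons 1 to 4, against 1.58, 4.82, 5.80 and -0.49 on their day 1 arrays. The off state was on number 3 on day 2 and on number 4 on day 1. RFX8, a member of the RFX transcription factor family, was on in number 4 on day 2 (2.12, against -1.16 to -0.96 in the others) and in number 3 on day 1 (3.47, against -1.52 to -1.13). SF3A1, a splicing factor subunit, stood at -1.96, 2.96, -1.84 and 3.14 on day 2 and at 2.75, 3.44, 3.06 and -2.16 on day 1. LCN2, the neutrophil granule protein lipocalin 2, stood at -0.09, 5.03, -2.58 and 1.62 on day 2 and at 4.95, 3.45, 4.57 and -0.33 on day 1. APOBEC3B, a cytidine deaminase, stood at -1.02, 4.08, -2.14 and -2.11 on day 2 and at 5.79, 5.18, -2.10 and -2.49 on day 1, so that its state differed between days in number 1. These were the 5 genes with the most variable change between the numbered pairs, and their adjusted p ranged from 0.278 to 0.924.

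**Figure D2:**
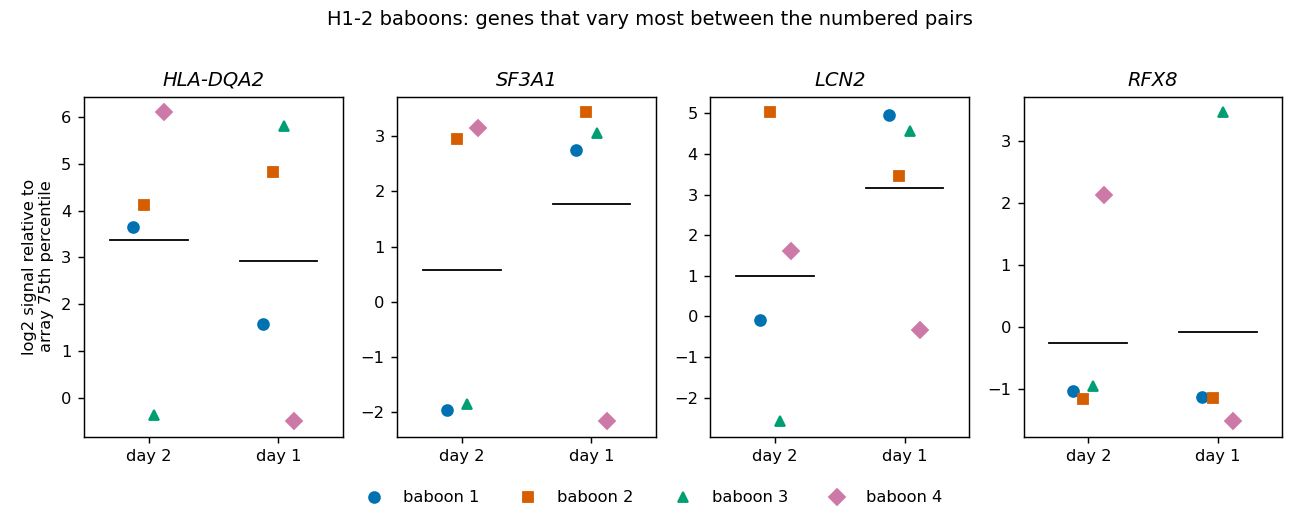
Log2 levels of HLA-DQA2, SF3A1, LCN2 and RFX8 on each H1-2 array, with day 2 left of day 1, a symbol per numbered baboon and a line at the mean of 4 arrays. HLA-DQA2 is near its lowest level in number 3 on day 2 and in number 4 on day 1, and RFX8 is high in number 4 on day 2 and in number 3 on day 1.

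Among the 28 gene lists, those of mature neutrophil and innate inflammatory genes had the lowest and those of T cell and NK genes the highest median changes. Few of the 21130 single genes tested passed. With arrays paired by title, limma called 1 gene that rose, 0.00473% of those tested, and 3 that fell, 0.0142% (adjusted p under 0.05). Before adjustment, 2806 genes with a positive and 3741 with a negative change had p under 0.05, 13.3% and 17.7% of all. No gene had an adjusted p between 0.05 and 0.06, the next smallest value was 0.0604, and 787 genes lay under 0.07. The median change of all genes was -0.08, with a 5th percentile of -1.04 and a 95th percentile of 0.88. The 4 day 2 levels lay above all 4 day 1 levels for 1039 genes (4.92%) and below them for 1135 (5.37%).

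The number of calls differed widely between fits. Without a term for the baboon 0 genes passed, with the 8 H1-2 arrays alone 0, and in a fit that both took the baboon as a random effect and added the 5 H0 arrays 902 (463 rose, 2.19%, and 439 fell, 2.08%). With numbers 3 and 4 exchanged on day 2, a pairing chosen after seeing the data and from these same arrays, 1927 passed (1049 rose, 4.96%, and 878 fell, 4.16%), all with the direction they had by title. Without baboon 1 the count was 0 under either pairing, and without baboon 4 it was also 0. Every H1-2 day 1 array was scanned on another day and on other slides than every H1-2 day 2 array, so day after irradiation, slide and scan day cannot be told apart. The 5 H0 arrays were on other slides than all H1-2 arrays. Where H1-2 levels are set against H0, irradiation and slide cannot be told apart either.

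The probes of the 4 called genes are shown by their first 30 bases of 60, 5′ to 3′, since HP and HPR are near copies and the fourth has no gene symbol. Positions are those in the files, on the human build hg19, for the bases shown. The HPR stretch lies at chr16:72110884-72110913 on the plus strand, the HP stretch at chr16:72094877-72094906 on the plus strand, the P2RY13 stretch at chr3:151044835-151044864 on the minus strand and the Q2Z8W5 stretch at chr1:90091627-90091656 on the minus strand.
HPR: aagctttgataagagctgtgctgtggctga
HP: gataagatgtggtttgaagctgatgggtgc
P2RY13: atgccagattttcttggtatctcccataat
Q2Z8W5: gcatgtgttaacctattaattaaatctaca

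HP encodes haptoglobin, an acute-phase protein that binds free haemoglobin and is also stored in neutrophil granules. Its log2 level was 6.90, 7.50, 6.38 and 5.27 on the day 2 arrays of baboons 1 to 4, against 9.60, 9.02, 8.17 and 8.49 on day 1. All day 2 levels lay below all day 1 levels, and HP fell by 2.31 ± 0.28 (adjusted p = 0.0422). HPR encodes the haptoglobin-related protein, found on lipoprotein particles. Its level was 5.39, 5.93, 4.81 and 3.71 on day 2, against 8.32, 7.63, 6.67 and 6.98 on day 1, and it fell by 2.44 ± 0.28 (adjusted p = 0.0412). The same 3 RefSeq transcripts, of both genes, are listed for either probe, so the 2 values cannot be assigned to separate genes. The 5 H0 arrays spanned 4.36 to 9.17 for HP and 2.62 to 7.43 for HPR, a range that holds every day 2 level of both genes. It also holds the HP day 1 levels of 9.02, 8.17 and 8.49 and the HPR day 1 levels of 6.67 and 6.98, so the H0 range does not separate the days.

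P2RY13, a receptor for ADP, stood at 2.11, 2.38, 1.17 and 1.35 on the day 2 arrays, against 3.73, 3.52, 2.85 and 3.00 on day 1. It fell by 1.52 ± 0.19 (adjusted p = 0.0422), again with no overlap of the days. The gene name Q2Z8W5 stands for an expressed sequence and long intergenic transcripts with no gene symbol. Its level was -2.68, -1.71, -1.65 and -1.62 on day 2, against -4.96, -3.30, -4.17 and -4.72 on day 1. It was well above background on 4 of 4 day 2 arrays and on 0 of 4 day 1 arrays, so that it was at least 1.94-fold higher on day 2 (adjusted p = 0.0412). For this bound, each day 1 array counted at its dimmest measured signal, or at the probe's own signal where that was higher. With another background correction (normexp) its change was 0.30 and did not pass (adjusted p = 0.119). Without baboon 1 the changes of HPR, HP, P2RY13 and Q2Z8W5 were -2.28, -2.17, -1.49 and 2.40, with adjusted p from 0.234 to 0.243.

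**Figure D3:**
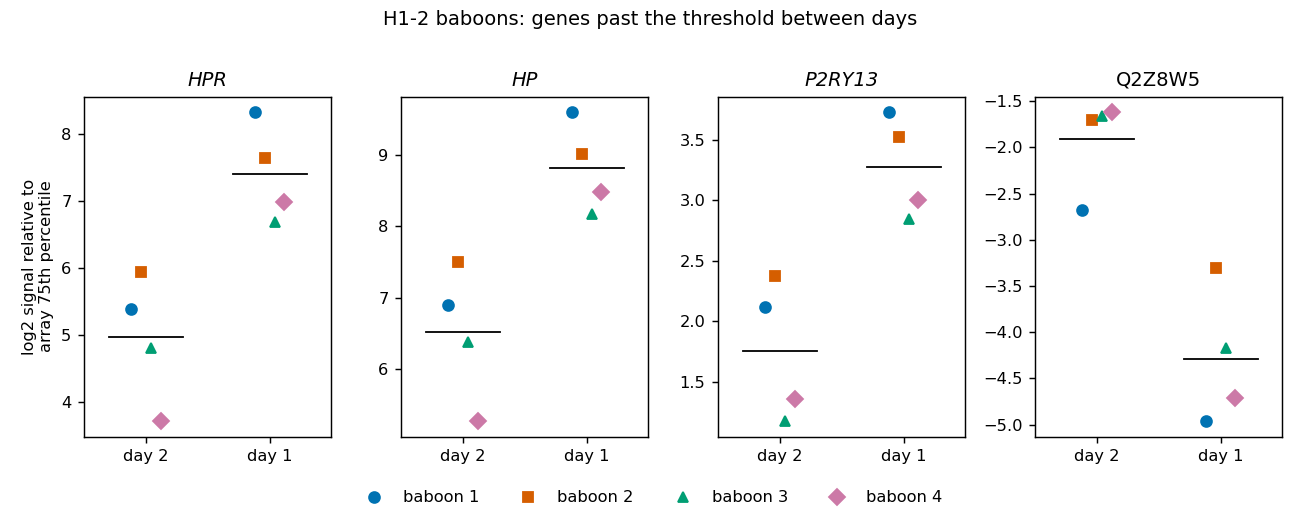
Log2 levels of HPR, HP, P2RY13 and the feature Q2Z8W5 on each H1-2 array, day 2 left of day 1, with a symbol per numbered baboon and a line at the mean of 4 arrays. In each panel the 4 day 2 points and the 4 day 1 points do not overlap, with the first 3 lower and Q2Z8W5 higher on day 2.

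Mature neutrophil genes, which encode surface receptors and enzymes of circulating neutrophils, had the lowest median change of the 28 gene lists. All 21 tested members had a negative change, the median was -1.09 against -0.08 over all genes, and 18 had an unadjusted p under 0.05 (17.7% of all genes were lower at that p). None passed at an adjusted p of 0.05 by title, and 3 of 21 fell with the baboon as a random effect (2.08% of all genes). For 6 of 21 all day 2 levels lay below all day 1 levels (5.37% of all genes), and for 9 of 21 without the arrays numbered 1 (7.54%). The mean level of the list was 4.50, 4.82, 3.83 and 3.14 on the day 2 arrays, against 5.67, 5.07, 4.81 and 5.35 on day 1. Levels in the H0 arrays spanned 2.17 to 4.92.

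CD177, a surface protein of neutrophils, stood at 2.83, 3.95, 3.52 and 1.12 on day 2 and at 5.96, 5.01, 5.26 and 6.70 on day 1, a change of -2.88 ± 0.56 (adjusted p = 0.0692). Its other probes gave -2.91 and -1.50. VNN2, a vanin of leukocyte membranes, stood at 5.45, 5.94, 5.53 and 4.98 on day 2 and at 8.04, 6.22, 7.60 and 6.93 on day 1 (-1.72 ± 0.33, adjusted p = 0.0692). In both genes the days did not overlap. The chemokine receptor CXCR2, whose ligands draw neutrophils into tissue, was at -1.002 ± 0.25 with no overlap of the days, while its partner CXCR1 was at -1.09 with overlapping days. The calcium-binding proteins S100A8, S100A9 and S100A12, abundant in neutrophil cytoplasm, were at -0.88, -1.16 and -1.11. CREB5, a transcription factor, was at -1.32 ± 0.26 (adjusted p = 0.0692), and PROK2 and ALPL at -1.70 and -1.52.

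Innate inflammatory genes had the next lowest median. All 24 members tested had a negative change, with a median of -0.997, and 20 had an unadjusted p under 0.05, against 17.7% of all genes. None passed by title and 4 of 24 fell with the baboon as a random effect, against 2.08% of all genes. For 6 of 24 the days did not overlap, all lower on day 2 (5.37% of all genes), and for 7 of 24 without the arrays numbered 1 (7.54%). The mean level was 2.75, 2.99, 1.84 and 1.56 on day 2, against 4.05, 3.39, 2.84 and 3.32 on day 1. CLEC4D, a lectin receptor of myeloid cells, was at -4.11, -2.24, -3.42 and -3.02 on day 2 and at -0.68, -1.33, -0.31 and -0.05 on day 1. It was well above background on 1 of 4 day 2 arrays and on 4 of 4 day 1 arrays (adjusted p = 0.0692). The inflammatory caspase CASP5 was at -1.11 ± 0.22 and TLR2, a receptor of bacterial lipoproteins, at -1.14 ± 0.24 (both adjusted p = 0.0692). IL1R2, the decoy receptor of interleukin 1, stood at 2.65, 3.46, 1.52 and 1.41 on day 2 and at 4.22, 3.47, 2.83 and 3.29 on day 1 (-1.19 ± 0.27, adjusted p = 0.0692).

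Genes of neutrophil granules, made mainly in marrow precursors, had a median of -0.77 over 19 tested. Of these 18 had a negative change and HP alone passed. For 3 of 19 the days did not overlap, all lower on day 2 (5.37% of all genes). CHI3L1, a chitinase-like secreted protein, stood at 7.04, 7.57, 6.43 and 6.04 on day 2 and at 7.69, 7.75, 7.70 and 7.91 on day 1 (-0.997 ± 0.29, adjusted p = 0.082). ELANE, neutrophil elastase, was well above background on 1 of 4 day 2 arrays and 0 of 4 day 1 arrays, so its change was not measured. Monocyte genes had a median of -0.36 over 15 tested, with 11 negative. The days did not overlap for 0 of 15 (of all genes, 4.92% higher and 5.37% lower). MARCO, a scavenger receptor of macrophages, stood at -0.39, 0.86, -3.51 and -3.18 on day 2 and at 0.31, 3.00, -1.34 and -1.06 on day 1. It was well above background on 2 of 4 day 2 arrays and 4 of 4 day 1 arrays. In 4 of 4 numbered pairs it was lower on day 2 (-1.78 ± 0.30, adjusted p = 0.0692). On both days it stood higher on the arrays numbered 1 and 2 than on those numbered 3 and 4. It was well above background on 0 of 5 H0 arrays. VCAN, a proteoglycan of monocytes, was at -0.79 ± 0.25 and TNFSF13B, the B cell survival factor BAFF, at -0.60 ± 0.21.

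Genes induced by glucocorticoid hormones had a median of -0.40 over 17 tested, with 12 negative, and their mean level was 2.57 to 2.90 on day 2 and 3.03 to 3.31 on day 1. DUSP1, a phosphatase that ends MAP kinase signalling, stood at 5.47, 5.49, 4.05 and 4.39 on day 2 and at 7.33, 6.05, 6.18 and 5.68 on day 1. CRISPLD2, a secreted protein, was at -1.52 ± 0.32 (adjusted p = 0.0692). FKBP5, a chaperone of the glucocorticoid receptor, stood at -3.44, -2.07, -1.80 and -1.23 on day 2 and at -0.57, -1.16, -0.90 and -0.91 on day 1. The days did not overlap, but its change of -1.25 ± 0.66 did not pass (adjusted p = 0.214), and its other probe gave -0.71. The list also holds neutrophil-expressed genes such as IL1R2, and what part of its change follows from the neutrophil level was not tested.

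Among the other genes with the smallest p and a lower level on day 2 were the following, all at an adjusted p of 0.0692. C5AR1, the receptor of the complement fragment C5a, was at -1.19 ± 0.20 and CFD, complement factor D, at -1.44 ± 0.24. CFD stood at 4.25, 4.16, 0.95 and 0.95 on day 2, against 5.50, 5.01, 2.80 and 2.77 on day 1. The arrays numbered 1 and 2 were thus the higher ones on both days. ENTPD3, an enzyme that breaks down extracellular nucleotides, stood at 4.41, 4.87, 2.62 and 3.55 on day 2 and at 6.39, 6.14, 5.75 and 5.09 on day 1. CA4, a membrane carbonic anhydrase, stood at 1.17, 2.21, 0.74 and -1.72 on day 2 and at 3.64, 4.25, 2.30 and 3.37 on day 1, a change of -2.79 ± 0.47. WLS, which carries WNT ligands to the cell surface, was at -1.18 ± 0.17, with -1.55 and -1.38 for its other probes. F2, prothrombin, was at -1.16 ± 0.20 and PRH2, a salivary proline-rich protein, at -1.11 ± 0.17. In ENTPD3, CA4, WLS, F2 and PRH2 the days did not overlap.

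T cell genes, which encode the receptor complex, its coreceptors and kinases, had the highest median change of the lists, 1.16 over 23 tested. Of these 19 had a positive change, 18 had an unadjusted p under 0.05 in that direction (13.3% of all genes) and 0 passed by title. With the baboon as a random effect 3 of 23 rose (2.19% of all genes). For 7 of 23 all day 2 levels lay above all day 1 levels, with the arrays numbered 1 (4.92% of all genes) and without them (7.12%), and for 1 of 23 below. The mean level was 2.85, 2.64, 3.18 and 3.56 on day 2, against 2.02, 1.66, 2.73 and 2.31 on day 1. The H0 arrays spanned 2.72 to 3.65.

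The adhesion receptor CD2 stood at 5.36, 5.03, 5.60 and 5.92 on day 2 and at 4.45, 3.76, 4.71 and 4.33 on day 1 (1.17 ± 0.24, adjusted p = 0.0692), and the days did not overlap. Its other probe, well above background on 7 of 8 arrays, gave 0.02. ICOS, a costimulatory receptor, was at 1.70 ± 0.35 with overlapping days. The coreceptor chains CD8A and CD8B were at 1.24 and 1.53 and the signalling kinase ZAP70 at 1.23. Not all members had a positive change: CD3E, a chain of the receptor complex, was at -0.14 ± 0.19 (adjusted p = 0.614), the kinase LCK at -0.38 and the coreceptor CD4, whose day 2 levels all lay below day 1, at -0.40. CD4 is also made by monocytes.

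NK and cytotoxic genes had a median of 1.03, with 21 of 23 positive and 14 of 23 at an unadjusted p under 0.05 in that direction, against 13.3% of all genes. None passed, by title or with the baboon as a random effect. For 5 of 23 the day 2 levels all lay above day 1 (4.92% of all genes), and for 6 of 23 without the arrays numbered 1 (7.12%), with a median of 0.69 then. Mean levels of the list were 1.48, 1.31, 0.92 and 1.12 on day 2, against -0.00, 0.26, 0.74 and 0.43 on day 1, and 1.08 to 2.61 in the H0 arrays. GZMB, granzyme B, stood at 8.72, 8.03, 7.28 and 7.37 on day 2 and at 6.17, 5.90, 6.97 and 6.71 on day 1 (1.41 ± 0.35, adjusted p = 0.0692). TBX21, the transcription factor T-bet, stood at 3.34, 3.12, 2.71 and 2.83 on day 2 and at 1.73, 1.19, 2.23 and 1.92 on day 1 (1.23 ± 0.32, adjusted p = 0.0721). Both were highest in baboons 1 and 2 on day 2 and lowest in them on day 1. GNLY, the pore-forming protein granulysin, was at 1.24 ± 0.43 and GZMM, granzyme M, at 1.12 ± 0.26.

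Naive lymphocyte genes had a median of 0.97 over 11 tested, with 8 positive and 0 that passed. CCR7, the receptor that guides cells into lymph nodes, stood at 5.22, 4.43, 6.34 and 7.20 on day 2 and at 3.22, 3.17, 5.60 and 4.72 on day 1 (1.62 ± 0.66, adjusted p = 0.137). LEF1, a transcription factor of the WNT pathway, was at 1.47 ± 0.50.

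**Figure D4:**
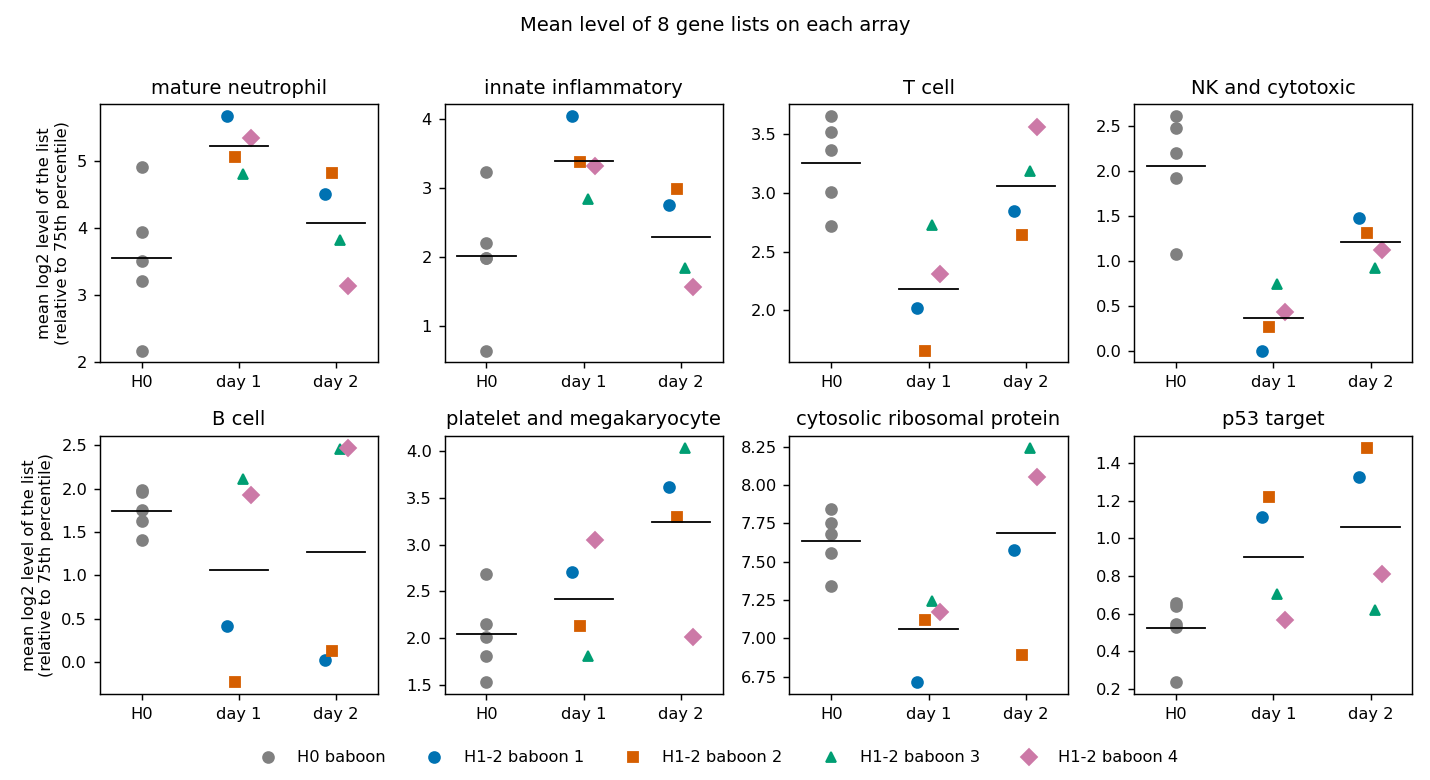
Mean log2 level of 8 gene lists on each array in H0 (grey), H1-2 on day 1 and H1-2 on day 2, with a symbol per numbered baboon and a line at the group mean. Neutrophil and inflammatory means are lower and T cell and NK means higher on day 2 than on day 1. The B cell means split the arrays numbered 1 and 2 from those numbered 3 and 4 on both days.

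Of the 12 genes with a symbol that had the smallest p and a positive change, none passed, and all had an adjusted p of 0.0692. PLK2, a polo-like kinase and p53 target, stood at -0.50, -0.99, 0.17 and 0.39 on day 2 and at -1.70, -2.72, -1.12 and -1.63 on day 1 (1.56 ± 0.23). Its mean was -0.33 in H0, against -1.79 on day 1 and -0.23 on day 2, so the day 2 mean was near that of H0. RHOBTB1 stood at 1.48, 1.36, 1.78 and 1.76 on day 2 and at 0.21, 0.42, 0.50 and 0.76 on day 1 (1.13 ± 0.17). TNIK, a kinase of the WNT pathway, stood at 2.86, 2.34, 2.75 and 3.35 on day 2 and at 1.61, 0.97, 2.11 and 1.79 on day 1 (1.20 ± 0.20), with 1.05 and 0.62 for its other probes. The days did not overlap in these genes, nor in KRR1, a factor of ribosome assembly (1.17 ± 0.19). KRR1 was well above background on 4 of 4 day 2 arrays and on 2 of 4 day 1 arrays. UBASH3B, a phosphatase of receptor signalling, NUDT13, a Nudix hydrolase, and SFR1, a recombination repair factor, were well above background on 4 of 4 day 2 arrays and on 0 of 4 day 1 arrays. With the processing of the main fit they were at least 1.21-fold, 2.22-fold and 1.37-fold higher on day 2. These bounds did not hold in every setting, where the lowest log2 changes were 0.20, 0.37 and 0.14. USP20, a deubiquitinase, was at 1.28 ± 0.19, LEPREL4 at 1.25 ± 0.19, ANKRD35 at 1.31 ± 0.21 and AARSD1 at 1.14 ± 0.17, each with overlapping days and a positive change in 4 of 4 numbered pairs. USP20 was well above background on 2 of 4 day 1 arrays, so its change rests in part on signals near background.

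B cell genes had a median change of 0.12 over 22 tested, 15 were positive and 0 passed. Paired by title, the median change was -0.48 for number 1 and 0.28, 0.24 and 0.63 for numbers 2 to 4. The probe patterns go against that pairing for numbers 1, 3 and 4. The days did not overlap for 0 of 22 (of all genes, 4.92% higher and 5.37% lower). Without the arrays numbered 1 the median was 0.44. The mean level was 0.03 and 0.13 in baboons 1 and 2 and 2.46 and 2.47 in baboons 3 and 4 on day 2, and on day 1 it was 0.42 and -0.23 against 2.12 and 1.93. The H0 arrays spanned 1.40 to 1.98. The arrays of baboons 1 and 2 were on other slides than those of baboons 3 and 4. The H2-3 arrays that shared slides with baboons 3 and 4 averaged -0.47 on day 2 and -1.02 on day 1. Whether the slide bears on the split was not tested. CR2, the complement receptor of B cells, stood at -1.08, -2.46, 0.92 and 1.05 on day 2 and at -3.39, -4.10, 0.01 and 0.08 on day 1 (1.46 ± 0.41, adjusted p = 0.0799), with 0.85 for its other probe. The 2 CR2 probes were well above background on 6 and 3 of 8 arrays, so these changes rest in part on signals near background. BACH2, a transcription factor, was at 0.98 ± 0.30 and FCER2, the low-affinity IgE receptor, at 0.68 ± 0.29. FCER2 was well above background on 6 of 8 arrays. CD79A, the signalling chain of the B cell receptor, stood at 5.08, 5.30, 8.10 and 7.35 on day 2 and at 6.92, 6.34, 7.91 and 8.01 on day 1 (-0.84 ± 0.46, adjusted p = 0.228). WNT3, a WNT ligand, had the same split, with 2.52, 1.74, 6.06 and 6.51 on day 2 and 1.61, 1.80, 5.49 and 5.00 on day 1 (0.73 ± 0.49, adjusted p = 0.316).

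Plasma cell genes had a median of 0.06 over 10 tested, with DERL3, a factor of protein quality control, at -0.96 ± 0.40, XBP1, a factor of secretory cells, at -0.47 ± 0.16 and SEC11C, a signal peptidase subunit, at 0.64 ± 0.27. MHC class II genes had a median of 0.09 over 13 tested, and 0 had an unadjusted p under 0.05 (of all genes, 13.3% higher and 17.7% lower). HLA-DOA, HLA-DOB and their transactivator CIITA were at 0.28, 0.28 and 0.29, and the other probes of HLA-DOA and CIITA gave -0.41 and -0.08. MHC class I loading genes had a median of 0.08 over 11 tested, with 6 positive, among them CALR, a chaperone of class I assembly (0.39 ± 0.18), and ERAP2, which trims peptides (0.40 ± 0.21), while the transactivator NLRC5 was at -0.55 ± 0.30.

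Genes of platelets and megakaryocytes stood at a median of 0.89 over 23 tested, with 22 positive, 0 passed by title and 1 of 23 risen with the baboon as a random effect (2.19% of all genes). The days did not overlap for 1 of 23, PTGS1 (4.92% of all genes higher). Averaged over the list, levels were 3.62, 3.30, 4.03 and 2.01 on day 2, against 2.70, 2.14, 1.81 and 3.05 on day 1. Paired by title, the median change was 0.93, 1.14 and 2.33 for numbers 1 to 3 and -1.11 for number 4. The probe patterns go against that pairing for numbers 3 and 4. With these 2 exchanged, day 2 number 3 (4.03) lay above day 1 number 4 (3.05), and day 2 number 4 (2.01) above day 1 number 3 (1.81). PF4, a chemokine stored in platelets, stood at 7.99, 7.61, 9.05 and 6.75 on day 2 and at 7.63, 7.04, 6.60 and 8.08 on day 1 (0.51 ± 0.55, adjusted p = 0.532), and its change was -0.14 without baboon 3. PTGS1, the cyclooxygenase of platelets, stood at 1.56, 1.19, 1.48 and 0.21 on day 2 and at -0.02, -0.42, -0.53 and 0.14 on day 1 (1.31 ± 0.42, adjusted p = 0.0942). SELP, the adhesion receptor P-selectin, was at 1.13 ± 0.47 and MMD, a membrane protein, at 1.01 ± 0.28.

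Erythroid and reticulocyte genes had a median of -0.34 over 25 tested, with 21 negative and 0 that passed, and a median of -0.14 without the arrays numbered 1. Their mean level was 3.80 and 3.80 in baboons 1 and 2 and 5.58 and 4.84 in baboons 3 and 4 on day 2, against 4.74, 4.50, 4.94 and 5.19 on day 1. ALAS2, the first enzyme of haem synthesis in red cell precursors, stood at 10.64, 10.61, 12.19 and 11.90 on day 2 and at 11.77, 11.57, 11.94 and 12.00 on day 1. The transferrin receptor TFRC was at 0.72 ± 0.18, BCL2L1 at -0.87 ± 0.38 and OSBP2, well above background on 1 of 4 day 2 arrays, at -0.90 ± 0.24. Eosinophil and basophil genes had a median of 0.55 over 12 tested and 9 positive. RNASE2, a ribonuclease of eosinophil granules, was at -0.97 ± 0.22, PTGDR2, a prostaglandin receptor, at 0.94 ± 0.36, and MS4A2, a chain of the high-affinity IgE receptor, at 1.23 ± 0.38 with 1 of 4 day 1 arrays well above background and 0.31 for its other probe.

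Cytosolic ribosomal protein genes did not share a direction across the arrays as paired by title. Their median change was 0.63 over 78 tested, 77 were positive, 48 had an unadjusted p under 0.05 (13.3% of all genes), 0 passed by title and 4 of 78 rose with the baboon as a random effect (2.19%). The days did not overlap for 2 of 78, both higher on day 2 (4.92% of all genes). The mean level was 7.57, 6.89, 8.24 and 8.05 on day 2, against 6.71, 7.12, 7.24 and 7.17 on day 1, so the median change was 0.84, 0.91 and 0.88 for numbers 1, 3 and 4 and -0.29 for number 2. RPS19 stood at 9.01, 8.88, 9.29 and 9.44 on day 2 and at 8.15, 8.56, 8.54 and 8.44 on day 1 (0.74 ± 0.18, adjusted p = 0.0692). RPL3 was at 0.92 ± 0.20 and RPL37 at 0.98 ± 0.24, while the other RPL37 probe, well above background on 8 of 8 arrays, gave -0.12.

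The p53 target list, which holds the common blood markers of radiation, had a median of 0.18 over 32 tested, and of 0.09 without the arrays numbered 1. Of these 20 were positive and 12 negative, 0 passed by title, and 1 of 32 rose with the baboon as a random effect (2.19% of all genes). For 2 of 32 the days did not overlap, both higher on day 2, a share near the 4.92% of all genes. AEN, a nuclease induced by p53, stood at -0.68, -0.29, -1.56 and -0.80 on day 2 and at -2.31, -1.37, -1.99 and -2.31 on day 1 (1.17 ± 0.23, adjusted p = 0.0692), with 0.71 for its other probe. FDXR, a ferredoxin reductase, stood at 2.55, 2.88, 3.28 and 3.19 on day 2 and at 1.76, 2.65, 2.47 and 2.66 on day 1 (0.59 ± 0.17, adjusted p = 0.0834). DDB2, which recognises damaged DNA, stood at 4.58, 5.41, 3.51 and 3.92 on day 2 and at 4.61, 4.84, 3.63 and 3.32 on day 1 (0.25 ± 0.26, adjusted p = 0.502). All 8 DDB2 levels lay above the H0 range of 2.65 to 3.24, which comes from arrays on other slides. CDKN1A, the cell cycle inhibitor p21, stood at -0.53, -0.18, -2.06 and -2.97 on day 2 and at -0.86, -0.17, -2.51 and -1.78 on day 1 (-0.11 ± 0.36, adjusted p = 0.853). MDM2, the ubiquitin ligase that limits p53, was at -0.43 ± 0.21, with -0.85 to -0.15 for its other probes, and BAX, a protein of the mitochondrial death pathway, at 0.06 ± 0.25, with -0.45 for its other probe. The list's mean level was higher on the arrays numbered 1 and 2 (1.33 and 1.48 on day 2, 1.11 and 1.22 on day 1) than on those numbered 3 and 4 (0.62 and 0.81 on day 2, 0.71 and 0.57 on day 1). These 2 sets of arrays were on different slides, and whether the slide bears on the levels was not tested.

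DNA repair genes had a median of 0.36 over 24 tested, with 19 positive. For 2 of 24 the days did not overlap, both higher on day 2 (4.92% of all genes). None passed by title and 3 of 24 rose with the baboon as a random effect (2.19% of all genes). The mean level was 1.04 to 1.38 on day 2, against 0.77 to 0.97 on day 1, so that the list means did not overlap. ATM, the kinase that senses double-strand breaks, stood at 0.85, 0.26, 1.03 and 1.70 on day 2 and at -0.64, -0.61, 0.60 and 0.02 on day 1 (1.12 ± 0.25, adjusted p = 0.0692). Its other probes gave 0.94 and -0.11. LIG1, a DNA ligase, was at 0.98 ± 0.26. Cell cycle genes had a median of 0.16 over 28 tested, with RRM1, a ribonucleotide reductase subunit, at 0.72 ± 0.20 and the helicase subunits MCM7 and MCM2 at 0.53 ± 0.15 and 0.56 ± 0.18. Replication-dependent histones had a median of -0.12 over 23 tested, with HIST1H4C at 0.70 ± 0.26, HIST1H1D at 0.44 ± 0.18 and HIST2H2BE at -0.47 ± 0.20.

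Stress and metabolic lists lay closer to the median of all genes. Heat shock genes had a median of 0.03 over 15 tested. HSPA1A, the inducible HSP70, stood at 3.66, 3.66, 2.10 and 1.96 on day 2 and at 5.16, 4.53, 3.22 and 3.66 on day 1 (-1.30 ± 0.20, adjusted p = 0.0692). Its near copy HSPA1B was at -0.97 ± 0.30, and the large chaperone HSPH1 at 0.83 ± 0.23, with 0.33 for its other probe. Immediate early genes had a median of -0.09 over 16 tested, with ZFP36, which destabilises cytokine mRNAs, at -0.71 ± 0.17, JUNB at -0.79 ± 0.26 and IER3 at 0.66 ± 0.21. Glycolysis genes had a median of -0.20 over 22 tested. The glucose transporter SLC2A3 stood at 4.19, 4.10, 3.50 and 2.80 on day 2 and at 5.52, 4.59, 4.47 and 5.02 on day 1 (-1.26 ± 0.24, adjusted p = 0.0692). PFKFB3, an activator of glycolytic flux, was at -1.40 ± 0.32, with -0.91 for its other probe, while the muscle-type phosphofructokinase PFKM was at 0.75 ± 0.16. With the exception of PFKFB3, the days did not overlap in these glycolysis genes.

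Respiratory chain and ATP synthase genes had a median of 0.11 over 46 tested, with NDUFB5, ATP5D and COX5A at 0.64, 0.45 and 0.52. Lysosome genes had a median of -0.25 over 24 tested and 21 negative, with the alpha-galactosidase GLA at -0.74 ± 0.18 and the membrane protein LAMP2 at -0.62 ± 0.19, whose other probes gave -0.62 and -0.12. Chemokine receptors had a median of 0.08 over 16 tested, 8 positive and 8 negative, from CXCR1 at -1.09 to CCR7 at 1.62, with XCR1 at -0.67 ± 0.20 and CX3CR1 at 0.74 ± 0.26. Among the 4 tested genes of non-blood tissues, whose median was -0.43, the endothelial cadherin CDH5 was at -0.54 ± 0.16, the proteoglycan DCN at -0.92 ± 0.30 and the apolipoprotein APOA1 at -0.32 ± 0.27.

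**Figure D5:**
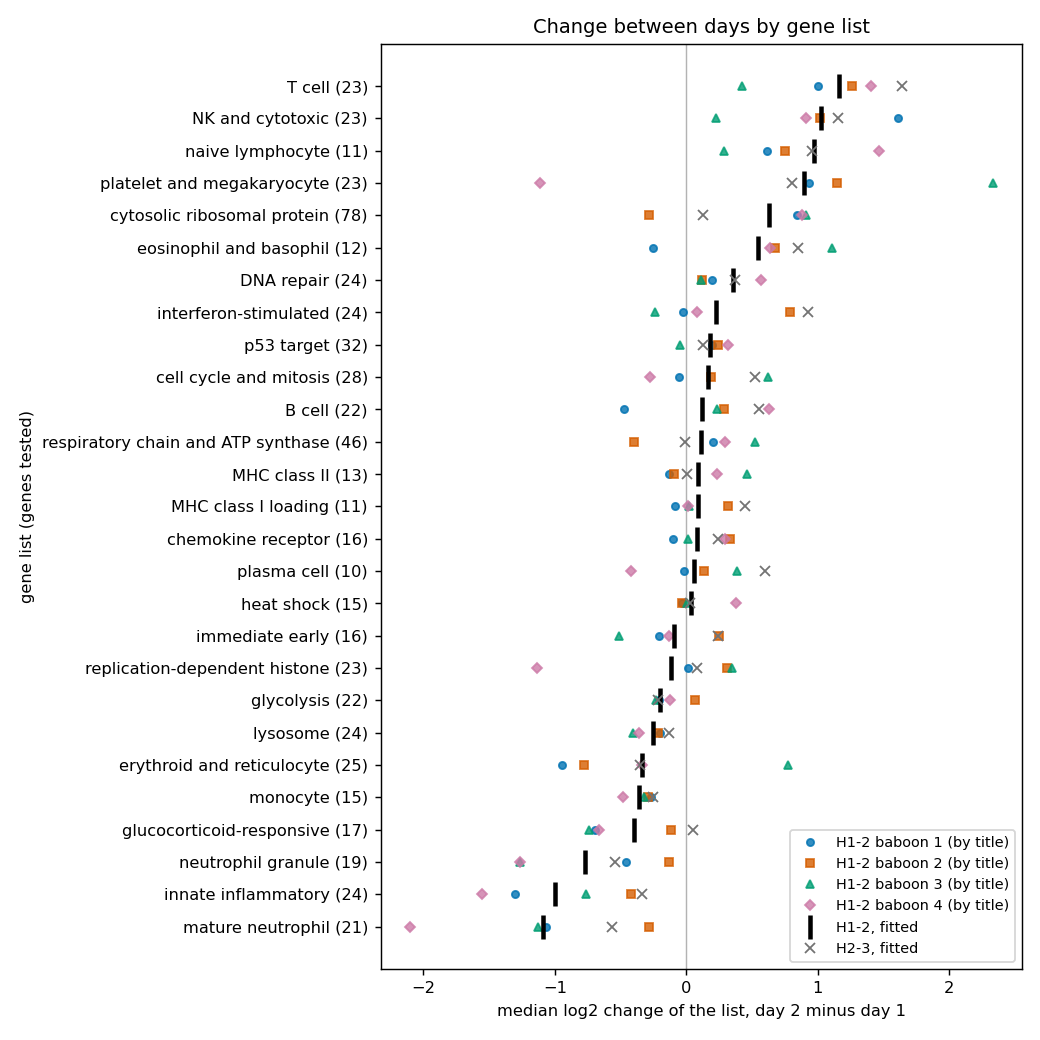
Median log2 change (day 2 minus day 1) of 27 gene lists, with the genes tested in brackets: symbols for the 4 H1-2 baboons paired by title, black bars for the fitted H1-2 change and grey crosses for the fitted H2-3 change. The fitted H1-2 medians run from -1.09 for mature neutrophil to 1.16 for T cell genes. For platelet genes baboon 4 lies opposite to the others as paired by title, a pairing that the probe patterns go against for this number.

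The same contrast was fitted in the H2-3 baboons to ask whether the change between days differed by category. In H2-3, 849 genes rose (4.02%) and 549 fell (2.6%), while the test of the difference in change, H1-2 minus H2-3, called 0 genes, with a smallest adjusted p of 0.999 from limma. Before adjustment 927 genes had p under 0.05, 4.39% of those tested. With slide as a block, which this contrast allows since slides held both categories, 0 passed and 1309 were at an unadjusted p under 0.05. Without H1-2 number 1 and H2-3 number 3, whose arrays matched each other across categories, 0 passed and 466 were at an unadjusted p under 0.05.

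The list medians of the categories stood side by side as follows. For T cell genes the median change was 1.16 in H1-2 and 1.64 in H2-3, for NK genes 1.03 and 1.16, for platelet genes 0.89 and 0.80 and for p53 targets 0.18 and 0.12. Mature neutrophil genes were at -1.09 in H1-2 and -0.57 in H2-3, innate inflammatory genes at -0.997 and -0.34, and ribosomal protein genes at 0.63 and 0.12. Glucocorticoid-responsive genes were at -0.40 in H1-2 and 0.05 in H2-3. Interferon-stimulated genes were at 0.23 in H1-2, where 0 of 24 passed and only 0.00473% of all genes rose. In H2-3 they were at 0.92, with 10 of 24 risen (4.02% of all genes). The difference in change had an unadjusted p under 0.05 for 11 of these 24 (4.39% of all genes), and for 2 of 24 without H1-2 number 1 and H2-3 number 3 (2.21% of all genes), where the medians were 0.27 and 0.89. ISG15, an antiviral ubiquitin-like protein, stood at 1.95, 2.30, 2.42 and 2.09 on day 2 and at 1.48, 1.59, 2.01 and 1.51 on day 1 in H1-2 (0.54 ± 0.16, adjusted p = 0.0823), and it rose by 1.13 in H2-3 (adjusted p = 0.00945). The isopeptidase USP18, which removes ISG15 from proteins, was at 0.92 ± 0.40 in H1-2 and rose by 2.48 in H2-3, and IFI44L was at 0.54 in H1-2 and rose by 1.00 in H2-3. The differences for these 3 genes had unadjusted p = 0.0176, 0.0152 and 0.17 by limma.

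The genes with the smallest p for the category difference did not pass. HHIP, an inhibitor of hedgehog signalling, was at -1.41 ± 0.33 in H1-2 and 1.11 in H2-3, a difference of -2.52 (unadjusted p = 0.000155, adjusted p = 0.999 by limma), and it was well above background on 2 of 4 day 2 and 3 of 4 day 1 arrays in H1-2. Its other probe, measured on 1 of 8 H1-2 arrays, was at -0.32 in H1-2. Within the first pair of slides that held both categories the difference was -2.21 and within the other -2.94. SYNDIG1, a synapse protein, ADAMTSL3 and BBS5, a cilium protein, differed by -1.54, -1.59 and -1.49, with -1.39, -1.74 and -0.77 within the first pair of slides and -1.56, -1.48 and -2.15 within the other. KBTBD6, a ubiquitin ligase adaptor, CETN3, a centriole protein, SSR3, a subunit of the translocon-associated complex, and OLFM1 differed by 1.34, 1.90, 1.09 and 2.42. Within the first pair of slides these were 1.41, 2.56, 0.87 and 3.02, and within the other 1.17, 1.20, 1.26 and 1.36. The OLFM1 change in H1-2 was 1.40, and its other probes gave 1.55, 0.08 and -0.12, well above background on 6, 8 and 3 of 8 arrays. CETN3 was well above background on 0 of 4 H1-2 day 1 arrays. It was at least 1.57-fold higher on day 2 with the processing of the main fit. That bound did not hold in every setting, where its lowest log2 change was 0.31.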

How the data were processed

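Blood RNA of 23 baboon samples was hybridised to human single-colour Agilent arrays. The deposited scanner files come from Agilent Feature Extraction 10.7.3.1, per the submitters' processing notes, and per the file headers hold background-subtracted spot intensity. The deposited value table holds the authors' log2 values of 39726 probes. Each column correlated at 0.9994 to 0.9999 with the log2 intensity of its array and all column medians were 4.70, while the exact centring and probe choice stay unknown. Human probes on baboon RNA lose signal where sequences differ.

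Here log2 of the processed signal was averaged over the spots of a probe, and each array was centred on the 75th percentile of its 50599 probes that are not controls. Probes entered when well above background on at least 4 of 23 arrays (27215 probes), and the brightest kept probe stood for its gene name, giving 21130 genes, 13778 with a symbol. The number of arrays limits the precision. A limma 3.58.1 fit (R 4.3.3, statmod 1.5.0) took the 18 irradiated arrays, with each of 9 baboons as a fixed block by its number in the titles, a day effect per category and their difference. Tests were two-sided with Benjamini-Hochberg adjustment over all genes at 0.05. The block pairs the days because titles give the same baboon number. The check of that pairing opens the report. Figures used matplotlib 3.10.9. The fit was tested on simulated data.

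The text names the 12 genes per direction that passed or had the smallest p, the 3 smallest-p members of each of 28 lists, a set of common markers, 4 per direction for the category difference and the 5 most variable genes. Some genes that this rule selects are not reported here. CXCR1, PROK2, ALPL, S100A8, S100A9, S100A12, CD8A, CD8B, ZAP70, LCK and CD4 were named after their values were seen, as was Q2Z8W5. Members and lists were chosen with earlier results of these data known. Alternatives covered the block, scaling, background, filter, probe rule, array weights, slide and leaving out each baboon. For scan day no alternative was run, since it could not be fitted for the change between days.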

Additional observations from a re-analysis of the deposited data

Results flagged for a closer look

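Single arrays stood far from the other 3 of their group, by Dixon's test of the gap relative to the range of the 4 values, in 12 of 312 checks of named genes and list means. Chance alone picks out about 1 in 20. On day 2, Q2Z8W5 stood at -2.68 in baboon 1 against -1.71 to -1.62 in the others, BCL2L1 at 2.08 in baboon 3 against 1.00 to 1.14, and RFX8 at 2.12 in baboon 4 against -1.16 to -0.96. Among list means on day 2, glucocorticoid-responsive genes stood at 2.90 in baboon 2 against 2.57 to 2.63, plasma cell genes at 2.51 in baboon 3 against 1.97 to 1.98, and non-blood tissue genes at -1.496 in baboon 3 against -0.75 to -0.62. On day 1, ANKRD35 stood at -2.15 and DERL3 at 8.22 in baboon 2, against -0.34 to -0.00050 and 8.63 to 8.71 in the others. KBTBD6 stood at -2.20 and RFX8 at 3.47 in baboon 3, against -3.11 to -2.97 and -1.52 to -1.13. SF3A1 stood at -2.16 in baboon 4, against 2.75 to 3.44. The respiratory chain mean was 4.28 in baboon 2, against 3.90 to 3.95 in the others.

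For 6 genes, with arrays paired by title, every H1-2 baboon had a change of one sign and every H2-3 baboon of the other. All 6 had been named for a small p of the difference between categories, a choice that favours opposite signs. None of these differences passed the test of the difference across all genes. KBTBD6 differed by 1.34 between H1-2 (1.00) and H2-3 (-0.34) and OLFM1 by 2.42 (1.40 in H1-2, -1.02 in H2-3), while other OLFM1 probes gave 1.55, 0.08 and -0.12 in H1-2. HHIP differed by -2.52 (-1.41 and 1.11), SYNDIG1 by -1.54 (-0.74 and 0.80), ADAMTSL3 by -1.59 (-0.95 and 0.64) and BBS5 by -1.49 (-0.89 and 0.60), with H1-2 given first in each.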

How the results depend on the processing

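The count of 4 called genes varied widely with the setting. It was 0 with no replicate block and 0 with the replicate block on the 8 H1-2 arrays alone, 902 with the baboon as a random replicate block and the H0 arrays added, 2 with the percentile over probes measured on all arrays, 1164 (653 higher, 511 lower) with normexp, 9 with no filter on dim probes, 590 with probes well above background on all 8 arrays, and 4849 (1999 higher, 2850 lower) with array weights. Leaving out each H1-2 baboon gave 0 to 85 genes: 0 without baboon 1 or 4, 25 without baboon 2 and 85 without baboon 3. Among settings chosen after seeing the data, exchanging numbers 3 and 4 gave 1927, and 3660 with the baboon random. It gave 0 with number 1 left out as well, and leaving out H1-2 number 1 and H2-3 number 3 gave 0 with and without the block. Quantile normalisation, the deposited table and the mean over probes gave 4, and slide as a random block 5. The cause of these differences was not tested. Slide or scan day as a fixed block could not be fitted for the change between days. The category difference stayed at 0 genes in every setting run.

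Some directions reversed. BAX was at -0.19 with the mean over probes, and -0.035 in all 4 settings without number 1. HLA-DOA was at -0.064 with the mean over probes, CDKN1A at 0.038 with array weights, and HLA-DQA2 at -0.093 in all 4 settings without number 1. Leaving out each H1-2 baboon gave ranges of -0.060 to 0.20 for BAX, -0.29 to 0.26 for CDKN1A, -1.60 to 2.65 for HLA-DQA2, -0.14 to 1.12 for PF4, -1.45 to 1.24 for RFX8 and -3.37 to 0.037 for SF3A1. The medians of the mature neutrophil list (-1.25 to -0.75), the innate inflammatory list (-1.28 to -0.81), the T cell list (0.92 to 1.25) and the NK list (0.60 to 1.23) kept their sign in all 21 settings, as did the platelet list over a wider range (0.26 to 1.50). The sign changed in 7 of 21 settings for plasma cell genes (-0.051 to 0.18), in 2 each for histones (-0.32 to 0.31), MHC class I (-0.11 to 0.28) and chemokine receptors (-0.038 to 0.17), and in 1 each for B cell (-0.054 to 0.44), cell cycle (-0.027 to 0.23), immediate early (-0.22 to 0.063) and heat shock genes (-0.048 to 0.13).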
